A study of Mus musculus with 4 samples.

Results

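This account concerns 9 genes that mark spiral ganglion neurons and their types: Isl1, Prox1, Slc17a6, Slc17a7, Calb1, Calb2, Pou4f1, Runx1 and Rxrg. They were looked up by symbol among the 49997 gene symbols of the count tables, and all 9 were listed. Their RNA was measured in 4 libraries from wild-type iMOP cells, a mouse line of immortalized multipotent otic progenitors, the cells that give rise to the inner ear. Of these, 2 were proliferating cultures grown in DMEM/F12 with B27, carbenicillin and basic FGF at 20 ng/ml, and 2 were neurons derived from the same line, grown in Neurobasal with N21, L-glutamine and the CDK2 inhibitor K03861 at 1 µM. Each group has a biological replicate 1 and a biological replicate 2, and the labels place both replicate 2 libraries in a set 2 without saying what a set is. All groups come from 1 immortalized line, so the replicates are cultures and not animals. Medium, supplements, basic FGF and K03861 all differ with the group, so they cannot be told apart from the change of cell state.

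Spiral ganglion neurons carry sound information from the hair cells of the cochlea to the brainstem. Type I neurons contact inner hair cells, and type II neurons contact outer hair cells. In the adult mouse, type I neurons fall into the subtypes Ia, Ib and Ic, which are told apart by calretinin (Calb2, high in Ia), calbindin (Calb1, high in Ib) and the POU-domain factor Pou4f1 (kept in Ic), with the runt-domain factor Runx1 in Ib and Ic. Isl1 and Prox1 are homeobox factors of the otic neuron lineage, and Slc17a7 and Slc17a6 encode the vesicular glutamate transporters VGLUT1 and VGLUT2 that fill synaptic vesicles. Rxrg encodes a nuclear retinoid receptor. None of these genes is restricted to the ear. Prox1 is also made by supporting cells and lymphatic endothelium, and Runx1 by blood cells.

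Of the 9 genes, 3 were detected, meaning at least 10 counts in a library: Prox1 and Pou4f1 in all 4 libraries, and Calb2 in both proliferating libraries but in neither neuron library. The other 6, Isl1, Slc17a6, Slc17a7, Calb1, Runx1 and Rxrg, never exceeded 2 counts in a library. This is 33.3% of the markers, against 28.6% of all listed symbols and 53.8% of the 20860 protein-coding genes of GENCODE M21 that had 10 counts in any library. Calb2 had 79 counts over both proliferating libraries and 3 over both neuron libraries, a 29.2-fold ratio once scaled to depth, with a 95% counting interval of 9.64 to 145. Prox1 went the other way, higher in both neuron libraries by a smaller margin, and Pou4f1 overlapped between the groups. None of the 3 differences passed the test across all genes.

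**Figure D1:**
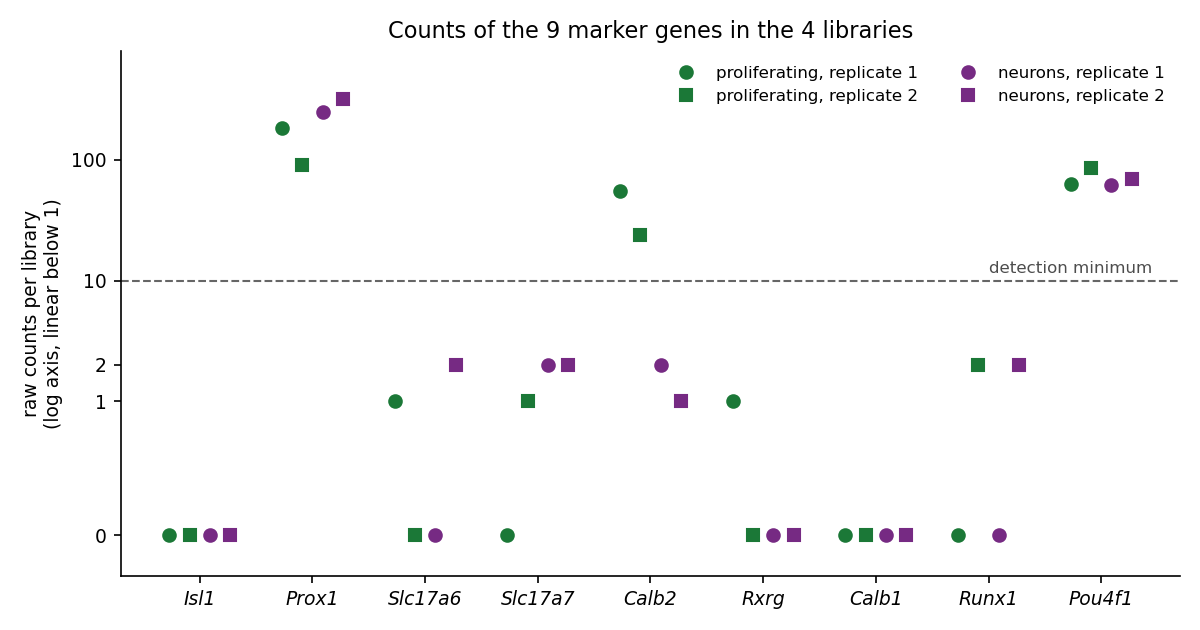
Raw counts of the 9 marker genes in each library, on a log axis that is linear below 1, with 1 point per library and a dashed line at the detection minimum of 10 counts. Only Prox1, Pou4f1 and the proliferating libraries of Calb2 lie above the line, and no point of the other 6 genes is above 2.

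The genes lie at separate places in the mouse genome (RefSeq gene spans on GRCm38.p6; the submitters' processing notes name mm10, which is the same assembly). Prox1 spans chr1:190118035-190170827 on the minus strand, Pou4f1 chr14:104461675-104468118 on the minus strand and Calb2 chr8:110142526-110168212 on the minus strand. Isl1 spans chr13:116298270-116309688 on the minus strand, Runx1 chr16:92601466-92826074 on the minus strand and Rxrg chr1:167598362-167639623 on the plus strand. Calb1 spans chr4:15881264-15906709, Slc17a6 chr7:51621830-51671126 and Slc17a7 chr7:45163921-45176139, all on the plus strand.

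The promoters of the lineage factors Prox1, detected in every library, and Isl1, listed at 0 in every library, are shown as the start regions of a detected and an undetected gene of the same role. Each is the 250 bases before a RefSeq start (GRCm38.p6), written 5′ to 3′ on the gene's own strand, at chr1:190170828-190171077 for the upstream start of Prox1 and chr13:116309689-116309938 for Isl1. Capitals mark the E-box motifs CAGCTG (the same on both strands) and CAGATG (either strand, so also as CATCTG), which proneural basic helix-loop-helix factors are known to bind. The motifs do not overlap each other. Bases just after the start occur in a GENCODE M21 transcript for Isl1 but not for the Prox1 start shown.
Prox1: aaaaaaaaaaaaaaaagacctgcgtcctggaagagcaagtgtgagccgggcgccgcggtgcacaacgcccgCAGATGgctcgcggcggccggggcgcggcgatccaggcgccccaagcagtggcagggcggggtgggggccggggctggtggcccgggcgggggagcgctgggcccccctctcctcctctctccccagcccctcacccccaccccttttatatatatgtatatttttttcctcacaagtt
Isl1: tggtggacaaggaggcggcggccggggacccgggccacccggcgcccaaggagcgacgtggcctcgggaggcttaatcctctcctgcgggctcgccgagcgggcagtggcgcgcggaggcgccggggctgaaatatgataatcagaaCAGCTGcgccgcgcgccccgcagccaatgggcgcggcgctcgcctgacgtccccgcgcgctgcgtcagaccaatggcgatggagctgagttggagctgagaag

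The RefSeq table held 11 such windows for 7 of the 9 genes; Calb1 and Calb2 had no entry. The Prox1 window shown was 64.8% G and C with 20 CpG dinucleotides, a second Prox1 start had 56.0% and 11, and Isl1 had 71.2% and 33, against medians of 52.4% and 6 over 32851 windows of all genes. The 3 windows of the detected genes Prox1 and Pou4f1 ranged from 56.0% to 78.0% G and C with 11 to 47 CpG. The 8 windows of the 5 undetected genes ranged from 41.2% to 71.2% with 2 to 33 CpG, so the ranges overlapped and the undetected genes reached lower. CAGATG was in 1 window of the detected and 1 of the undetected genes, and in 14.4% of all windows. CAGCTG was in 1 and 2 of them, and in 13.0% of all windows.

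Depth and other facts of the libraries bear on every value that follows. The deposited totals lay between 7446361 and 14484011 counts, of which 53.3% to 76.1% fell on Rn18s-rs5, a gene of 18S ribosomal RNA. That share was higher in both replicate 2 libraries than in both replicate 1 libraries. Without it 2595578 to 3850766 counts remained per library. Counts scaled to library depth (CPM) below are scaled with edgeR's TMM factors, which set the libraries to a common level over most genes, and the 18S row is part of their denominator. A count of 0 in a library is compatible with up to 3 counts, which is 0.246 to 0.405 CPM depending on the library. In bulk RNA, fewer cells of a type and less RNA per cell cannot be told apart.

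The lineage factors came first in the order of roles, and they differed in whether they were measured at all. Prox1 had 184 counts in replicate 1 and 90 in replicate 2 of the proliferating cells, and 247 and 318 in the neurons. Scaled by TMM this was 15.1 and 12.1 CPM in proliferating cells and 20.7 and 32.3 CPM in neurons. Both neuron libraries thus lay above both proliferating libraries, as they did for 12.9% of the 12783 genes tested. The group means were 13.6 ± 2.07 CPM and 26.5 ± 8.21 CPM (SD, n = 2 each).

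The edgeR quasi-likelihood fit gave Prox1 a log2 fold change of 0.96 (SE 0.48, 95% interval -0.16 to 2.08), with an adjusted p-value of 0.9998 and an unadjusted p-value of 0.0832. The interval includes 0 and also a change of more than 4-fold, so the data leave the size of the difference wide. Within the replicate 1 pair the difference was 0.45 on the log2 scale and within the replicate 2 pair 1.40. Over all tested genes, 54.3% had the same sign in both pairs. The estimate was positive under each alternative tried, from 0.17 for log2(RPKM + 1), a scale that compresses the differences of weakly expressed genes, to 1.21 without neuron replicate 1. Separation of the groups held with totals that exclude the 18S row, at 53.0 and 34.7 against 64.1 and 91.9 CPM. It did not hold with the full library totals, where proliferating replicate 1 stood at 24.7 CPM and neuron replicate 2 at 22.0 CPM. An antisense gene, Prox1os, shares exonic sequence with Prox1 and had 0 to 2 counts per library. The use of strand in counting is not given in the sources used here.

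Isl1 had 0 counts in all 4 libraries. Over the summed depth of a group, that allows up to 0.153 CPM for the proliferating libraries and 0.138 CPM for the neuron libraries, for counting error alone. Its LIM-homeobox relatives Isl2 and Lhx1 were both detected. Isl2 had 21 and 11 counts in proliferating cells and 5 and 11 in neurons. Lhx1 had 40 and 29 counts in proliferating cells and 25 and 158 in neurons, where neuron replicate 2 stood far above the other 3 libraries. Neither passed the edgeR test (adjusted p-value 0.9998 for each). Prox2, the paralog of Prox1, had 14 and 4 counts in proliferating cells and 22 and 5 in neurons, overlapping between the groups.

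**Figure D2:**
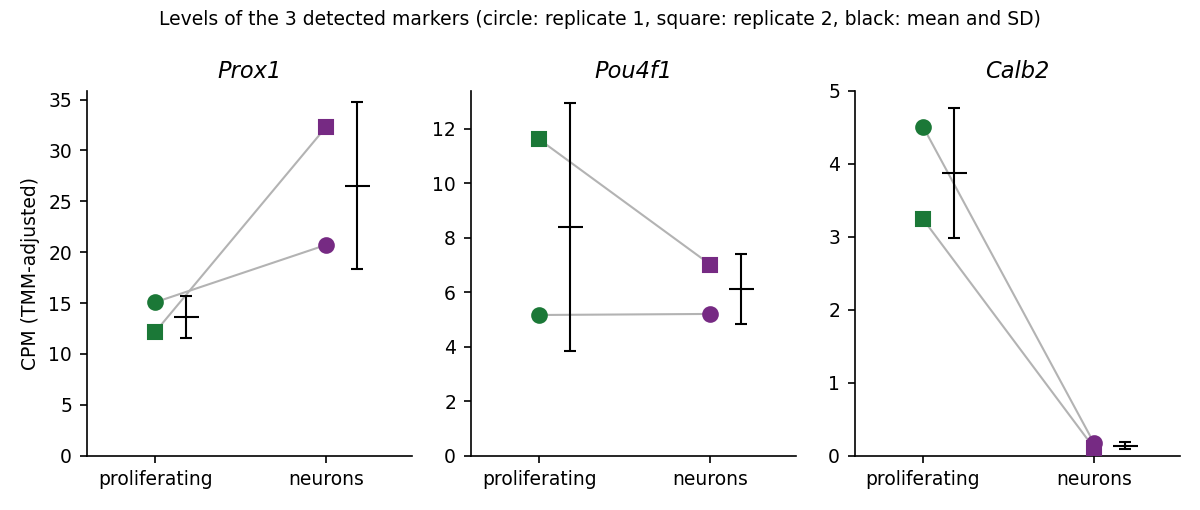
TMM-adjusted CPM of Prox1, Pou4f1 and Calb2 in each library, with lines joining the libraries of the same replicate number and black marks for the mean and SD of 2 libraries; each panel has its own axis from 0. Prox1 lies higher in both neuron libraries, Pou4f1 overlaps, and Calb2 lies near 0 in both neuron libraries.

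The vesicular glutamate transporters were not detected in either state. Slc17a6 had 1 and 0 counts in proliferating cells and 0 and 2 in neurons. Slc17a7 had 0 and 1 counts in proliferating cells and 2 and 2 in neurons, a ratio of 3.61 with an exact 95% counting interval of 0.357 to 178. At this depth no difference was detectable for either gene. Slc17a8, the transporter of inner hair cells, had a single count in neuron replicate 1. Other genes of glutamate handling and release were present: of 10 such genes 9 were detected and 8 tested, 4 with a positive and 4 with a negative log2 fold change, and 0 were called. Their median was -0.07, against 0.02 over all tested genes. Snap25, part of the vesicle fusion machinery, had 16 and 7 counts in proliferating cells and 2 and 35 in neurons.

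Among the 5 markers listed for type I subtypes, Calb2 differed most between the groups. Calb2 encodes calretinin, a calcium-binding protein of subtype Ia. Its counts were 55 (replicate 1) and 24 (replicate 2) in proliferating cells, and 2 and 1 in neurons, so both proliferating libraries lay far above both neuron libraries. A separation of this direction was seen for 14.5% of tested genes. The levels were 4.51 and 3.24 CPM in proliferating cells and 0.168 and 0.102 CPM in neurons, with means of 3.87 ± 0.896 and 0.135 ± 0.0467 CPM (SD, n = 2 each). The ratio of summed counts per summed effective depth was 29.2-fold, with an exact 95% counting interval of 9.64 to 145.

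For Calb2 the edgeR log2 fold change was -4.71 (SE 0.82, 95% interval -6.62 to -2.80), with an unadjusted p-value of 0.000566 and an adjusted p-value of 0.769. The unadjusted value was the 8th smallest of the 12783 genes, and 17 genes had a lower log2 fold change. Calb2 passed the gene filter only through the proliferating libraries. It was the single marker with an unadjusted p-value under 0.05, a level that 2.51% of tested genes reached in the lower direction and 0.915% in the higher direction. At an adjusted p-value under 0.05 this edgeR test called 0% of the 12783 genes in either direction. Calb2 was called lower by DESeq2 (adjusted p-value 0.0206), which called 0.416% of its genes lower and 0.104% higher, and by edgeR without a gene filter (0.00106), which called 0.472% lower and 0.159% higher. With the replicate number as a block it was not called (edgeR adjusted p-value 0.124), in a fit that called 0.0235% of genes lower and 0% higher.

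Within replicate 1 the ratio of proliferating cells to neurons was 26.9-fold for Calb2 (exact 95% counting interval 7.09 to 227), and within replicate 2 it was 31.9-fold (5.20 to 1310). These rest on 2 and 1 neuron counts, so the size of the difference is poorly bounded above. Leaving out 1 library at a time gave log2 fold changes from -5.12 to -4.44.

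**Figure D3:**
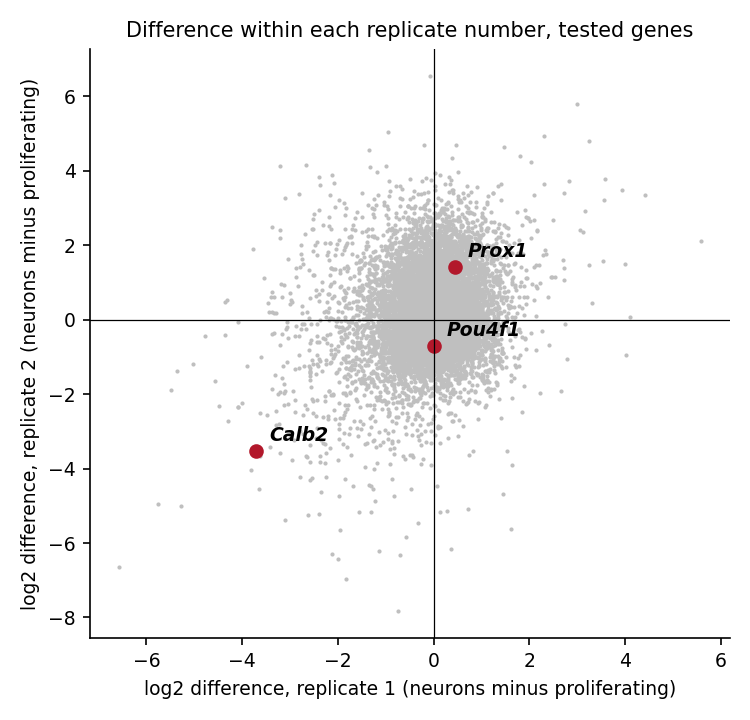
Difference of log2 CPM between neurons and proliferating cells within replicate 1 (x axis) and within replicate 2 (y axis). The 12783 tested genes are in grey, 54.3% of them with the same sign in both, and the 3 detected markers are in red. Calb2 lies at -3.70 and -3.54, values that the prior count of 2 pulls towards 0 because its neuron counts are 2 and 1, and Prox1 and Pou4f1 lie within the main cloud.

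Some markers of glia and of progenitors also differed between the groups in level, although 0 of either list were called, and their part in the difference of Calb2 was not tested. Of 8 glial genes 3 were detected. Their list summed to 44.5 and 71.5 CPM in the proliferating libraries and 23.2 and 8.95 CPM in the neuron libraries. Of these sums, Fabp7 alone held 22.3 and 48.9 CPM in the proliferating libraries and 17.7 and 0.915 CPM in the neuron libraries. Sox10, a factor of the glial lineage, and Mbp, a myelin protein, had at most 2 counts in a library. Gfap, an intermediate filament of astrocytes and some other glia, had 181 and 89 counts in proliferating cells and 1 and 2 in neurons. The 10 genes of supporting cells and progenitors summed to 142.6 and 215.6 CPM in the proliferating libraries and 147.9 and 87.7 CPM in the neuron libraries, with 7 detected and Gjb2 and Gjb6 at 0; these sums overlapped between the groups. Fgfr3, an FGF receptor of progenitors and some supporting cells, had 109 and 193 counts in proliferating cells and 15 and 18 in neurons. Of the 7 tested genes of that list, 6 had a negative log2 fold change. For 4 of them both neuron libraries lay below both proliferating libraries, as for 14.5% of all tested genes. The 1 gene with a positive log2 fold change was Cdkn1b, an inhibitor of cyclin-dependent kinases. Its counts were 268 and 150 in proliferating cells and 404 and 428 in neurons. Sox2, a progenitor factor, had 362 and 355 against 402 and 216, with a log2 fold change of -0.48.

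Pou4f1, the POU-domain factor kept in subtype Ic and needed by many sensory neurons, was detected in every library. Its counts were 63 (replicate 1) and 86 (replicate 2) in proliferating cells, and 62 and 69 in neurons. In TMM-adjusted CPM these were 5.16 and 11.6 against 5.20 and 7.01. Proliferating replicate 2 was high and the other 3 libraries lay close together, so the groups overlapped. The means were 8.39 ± 4.56 CPM and 6.11 ± 1.28 CPM (SD, n = 2 each).

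The log2 fold change of Pou4f1 was -0.45 (SE 0.56, 95% interval -1.76 to 0.87; edgeR adjusted p-value 0.9998). Within the pairs the difference was 0.01 in replicate 1 and -0.71 in replicate 2. Its sign rested on proliferating replicate 2: without that library the log2 fold change was 0.26, and without proliferating replicate 1 it was -0.96. With the full library totals the libraries stood at 8.46 and 8.29 CPM for the proliferating group and 6.54 and 4.76 CPM for the neuron group, which do not overlap, so the overlap itself depends on the scaling. Its paralogs Pou4f2 and Pou4f3, the latter a factor of hair cells, had 0 counts in all 4 libraries.

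**Figure D4:**
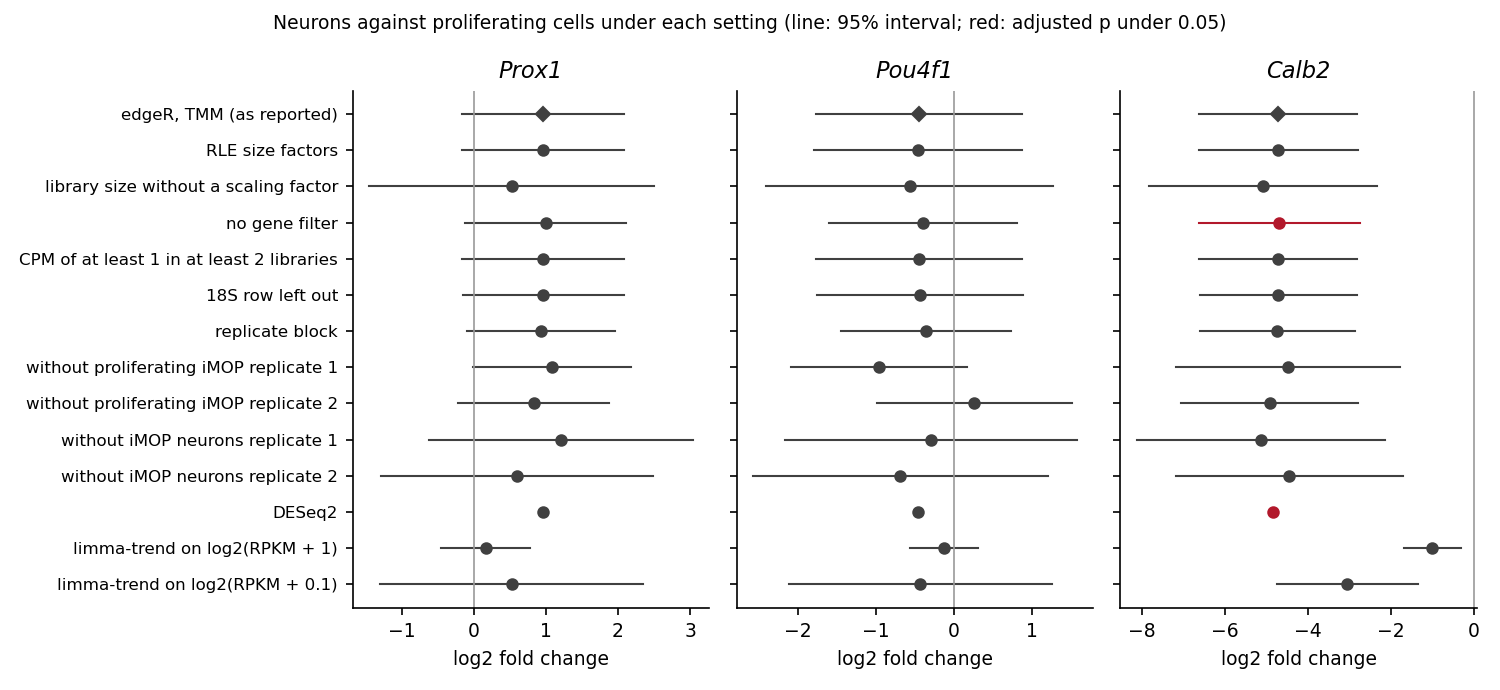
Log2 fold change of the 3 detected markers under each setting, with 95% intervals (none is drawn for DESeq2); positive values are higher in neurons, and red marks an adjusted p-value under 0.05. Prox1 is above 0 and Calb2 below 0 in every row, Pou4f1 crosses 0 without proliferating replicate 2, and red appears for Calb2 only.

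The remaining subtype markers were at or near 0. Calb1, which encodes the calcium-binding protein calbindin of subtype Ib, had 0 counts in all 4 libraries, allowing up to 0.153 CPM for the proliferating libraries and 0.138 CPM for the neuron libraries. Rxrg had a single count, in proliferating replicate 1. Runx1 had 2 counts in each of the replicate 2 libraries and 0 in both others. No fold change is given for these genes, since both groups were at or under 3 counts. Their relatives were measured in the same libraries. Rxrb, a broadly made retinoid receptor, had 65 and 52 counts in proliferating cells and 111 and 73 in neurons, and Rxra had 50 and 71 against 32 and 44. Cbfb, the partner subunit of all runt-domain factors, had 244 and 171 counts in proliferating cells and 316 and 247 in neurons. Runx2, a runt-domain factor of bone, had 10 and 8 counts in proliferating cells and 1 and 3 in neurons, and Runx3 had at most 2. In the whole list of 13 relatives 8 were detected, 7 were tested and 0 were called, with 5 positive and 2 negative log2 fold changes and a median of 0.44, against 0.02 for all tested genes.

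Levels of different genes were compared per kilobase of GENCODE M21 exons merged over transcripts. The deposited RPKM values were not used for this, because they imply a length of 47.1 kb for Prox1, 23.7 kb for Pou4f1 and 4.25 kb for Calb2, while the merged exons measure 8.39, 4.67 and 1.74 kb. In proliferating cells Calb2 stood at 2.22 ± 0.514, Pou4f1 at 1.79 ± 0.976 and Prox1 at 1.62 ± 0.247 CPM per kb (SD, n = 2 each). Neighbours in that order overlapped. In neurons the order was Prox1 at 3.16 ± 0.978, Pou4f1 at 1.31 ± 0.275 and Calb2 at 0.0773 ± 0.0268 CPM per kb, and no neighbours overlapped.

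Among the 11597 tested genes with a length, Calb2 ranked at the 69.6th and 58.5th percentile of level per kb in the proliferating libraries. In the neuron libraries Calb2 ranked at the 1.92nd and 0.95th percentile. Genes with few counts in both groups had mostly been removed by the gene filter, which Calb2 passed only through the proliferating libraries. A rank near the bottom in neurons thus follows from the filter and the few neuron counts, and is not a separate result. Prox1 ranked at the 57.0th and 51.1st percentile in proliferating cells and at the 68.8th and 79.96th in neurons. Pou4f1 stayed in the middle of the range, between the 39.0th and 66.8th percentile.

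Patterns most like those of the detected markers were sought among the tested genes, by the root mean square difference of log2 CPM centred over the 4 libraries. With 4 points this likeness is easily reached. For Prox1 the closest were Mir1839 (0.066) and Stx17 (0.077), and 90 genes lay within 0.2. For Pou4f1 they were Czib (0.026) and Med22 (0.029), with 788 genes within 0.2. For Calb2 they were Adamts3 (0.21), with 23 and 14 counts in proliferating cells and 0 in both neuron libraries, and Tst (0.30), with 41 and 14 against 2 and 1. For Calb2, 0 genes lay within 0.2.

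Other genes known from spiral ganglion neuron types were taken from lists. Of 8 further type I genes, 3 were detected and tested and 0 called: 1 had a positive and 2 had a negative log2 fold change, with a median of -0.67. Pcdh20, Grm8 and Kcna1 were at 0 in all libraries. Pvalb, which encodes the calcium-binding protein parvalbumin, had 14 and 2 counts in proliferating cells and 4 and 106 in neurons, so 1 neuron library was high and the other was not. Cacna2d1, a calcium channel subunit, had 56 and 42 counts in proliferating cells and 12 and 30 in neurons, with a log2 fold change of -1.34 (edgeR adjusted p-value 0.9998). Lypd1, a membrane-anchored protein used as a mark of subtype Ic, had 0 and 3 counts in proliferating cells and 3 and 7 in neurons.

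Of 8 type II genes, 4 were detected, 2 were tested and 0 called. Gata3, which acts throughout otic neuron development and stays on in type II neurons, had at most 2 counts in a library. Prph, which encodes the filament protein peripherin of type II neurons, had 12 and 1 counts in proliferating cells and 4 and 31 in neurons. Th, the enzyme that begins catecholamine synthesis, had 4 and 56 counts in proliferating cells and 0 and 11 in neurons, with the replicate 2 libraries high in both groups. Etv4, an ETS factor that is also a target of FGF signalling, had 48 and 39 counts in proliferating cells and 10 and 2 in neurons, with a log2 fold change of -3.07 (SE 0.78; edgeR adjusted p-value 0.852).

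The wider lineage genes were better covered. Of 14 otic neuron lineage genes, 9 were detected and tested, 5 with a positive and 4 with a negative log2 fold change, with a median of 0.02 and 0 called. Eya1, a cofactor of early otic development, had 62 and 27 counts in proliferating cells and 103 and 57 in neurons. It was higher in both pairs (0.74 and 0.64 on the log2 scale). Both neuron libraries lay above both proliferating libraries, as for 12.9% of all tested genes. Epha4, a guidance receptor of the spiral ganglion, had 91 and 19 counts in proliferating cells and 162 and 190 in neurons, with a log2 fold change of 1.70 (SE 0.63; edgeR adjusted p-value 0.9998). Ntrk2, the receptor of the neurotrophin BDNF, had the lowest log2 fold change of the list, at -3.36 (SE 0.60; edgeR unadjusted p-value 0.000692, adjusted 0.769), with 890 and 241 counts in proliferating cells and 49 and 61 in neurons. Nhlh1, a basic helix-loop-helix factor, had 8 and 199 against 17 and 40. Neurod1, a proneural factor, had 30 and 6 counts in proliferating cells and 2 and 24 in neurons, with opposite signs in the pairs. Neurod4 had 21 and 26 counts in proliferating cells and 46 and 89 in neurons, higher in both pairs. Its log2 fold change was 1.32 (SE 0.65; edgeR adjusted p-value 0.9998). Neurog1, the factor that starts the otic neuron lineage, had 1 count in all.

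**Figure D5:**
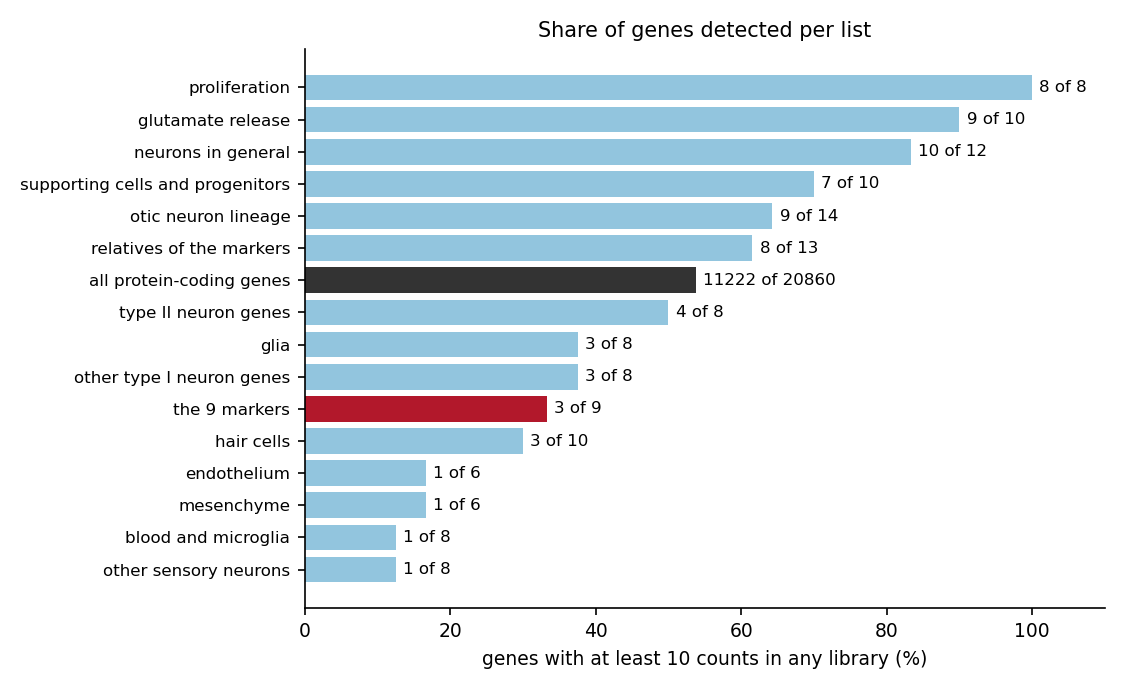
Share of genes with at least 10 counts in any library, for the 9 markers (red), for lists of related and cell-type genes (blue) and for protein-coding genes (black), with the number of genes at each bar. The markers stand at 3 of 9, next to hair cell genes at 3 of 10. Glial genes and other type I neuron genes stand at 3 of 8 each, and type II neuron genes at 4 of 8. Genes of neurons in general stand above these, at 10 of 12.

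The cultures labelled as neurons were compared with general markers. Of 12 genes of neurons in general, 10 were detected and tested, 8 with a positive and 2 with a negative log2 fold change, with a median of 0.34 and 0 called. Map2, a dendritic microtubule protein, had 1143 and 682 counts in proliferating cells and 1444 and 1379 in neurons, and Uchl1 had 256 and 236 against 253 and 392. Gap43, a growth cone protein, had 0 and 5 counts in proliferating cells and 0 in both neuron libraries, and Nefm, a neurofilament subunit, had at most 1. Elavl4, an RNA-binding protein of neurons, and Map2 were the 2 of these 10 genes for which both neuron libraries lay above both proliferating libraries, against 12.9% of all tested genes. The log2 fold change was negative for Tubb3, a neuronal tubulin (-0.67), and Stmn2, a microtubule regulator of growing axons (-1.13). Proliferation genes were also measured in both groups, and all 8 were detected. Their list summed to 340.8 and 85.6 CPM in the proliferating libraries and 428.3 and 252.8 CPM in the neuron libraries. All 8 had a positive log2 fold change, with a median of 0.46 against 0.02 over all tested genes. Of them 0 were called, and the sums overlapped between the groups.

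Genes of blood, endothelium, other sensory neurons and hair cells were mostly under the detection minimum. Of 8 blood and microglia genes 1 was detected, and Ptprc, Spi1, Tyrobp, C1qa and Gata1 were at 0 in all 4 libraries. Of 6 endothelial genes 1 was detected, Pdpn, with 102 and 27 counts in proliferating cells and 56 and 7 in neurons, and Lyve1 of lymphatic vessels was at 0. Of 8 genes of other sensory neurons, Isl2 was the one detected, with Trpv1 and Scn10a at 0 and Tlx3, a factor of several sensory ganglia, at 2 to 6 counts. Of 10 hair cell genes 3 were detected, and Otof was at 0. The highest was Myo6, a myosin made in many tissues, with 256 and 121 counts in proliferating cells and 54 and 122 in neurons. Of these genes 2 were tested and 0 called: Myo6 had a negative log2 fold change (-1.14) and Atoh1 a positive one (1.29).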

How the data were processed

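RNA was sequenced from 4 libraries after removal of ribosomal RNA from 500 ng of total RNA, per the labels' protocols. For each library the authors deposited a table of raw counts and one of RPKM. The submitters' processing notes name HISAT2, SAMtools, featureCounts, DESeq2, deepTools 3.4.3 and mm10; settings, annotation, use of strand and treatment of reads with several matches are not given in the sources used here. The deposited RPKM equal the counts divided by the full total and by 1 length per gene (15452 of 15452 genes with counts in all libraries, within 0.1%).

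Groups and replicate numbers come from the titles. The test was edgeR 4.0.16 in R 4.3.3 (TMM, filterByExpr with minimum count 10 and minimum total 15, glmQLFit, glmQLFTest, group alone), adjusted by Benjamini-Hochberg over 12783 genes, with calls under 0.05, two-sided. SE is the log2 fold change divided by the root of F. The smallest two-sided p of an exact permutation of 2 against 2 libraries is 0.333, so none was made. Replicate spread may be partly technical. Both replicate 2 titles name a set 2, so the numbers were taken to mark a shared set; deviations of same-numbered libraries correlated at r = 0.33. Pair differences are log2 CPM with prior count 2. Intervals of ratios are exact conditional binomial and, like the limits for a count of 0 (3 counts), cover counting error only. Alternatives were DESeq2 1.42.0, other scalings and filters, limma 3.58.1 on log2(RPKM + 1) and log2(RPKM + 0.1), a replicate block, the 18S row left out and leaving out each library. The code was tested on simulated counts. The 9 markers and the 14 lists of 122 related genes were chosen with earlier results of these data known. Named genes are the markers, list genes and the 2 closest patterns per tested marker. Values outside the fit used Python 3.11.15, pandas 2.3.3 and scipy 1.17.1.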

Additional observations from a re-analysis of the deposited data

How the results depend on the processing

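The number of markers detected was 3 with a minimum of 5 or 20 counts and with counts scaled to the smallest total without the 18S row. The log2 fold change of Prox1 was positive and not called in 13 of 13 alternatives (0.17 to 1.21), and that of Calb2 was negative in 13 of 13 (-5.12 to -0.99, the latter on log2(RPKM + 1)). Calb2 was called without a gene filter (-4.68) and by DESeq2 (-4.82), where 1 marker was called lower against 0 otherwise; without the filter the dispersion of each gene came from the trend alone. Over all 13 alternatives its adjusted p-value lay between 0.00106 and 1.0. Pou4f1 reversed without proliferating replicate 2 (0.26) and lay between -0.96 and 0.26 when each library was left out. That range was 0.61 to 1.21 for Prox1, -5.12 to -4.44 for Calb2 and 0 for markers called in either direction. Over all genes, calls were 0 higher and 0 lower (117 and 321 at an unadjusted p-value under 0.05). DESeq2 called 12 higher and 48 lower, no gene filter 41 and 122, the replicate block 0 and 3, library size alone 0 and 2, log2(RPKM + 1) 0 and 1, log2(RPKM + 0.1) 0 and 2; leaving out a library gave 3 to 33 higher and 11 to 90 lower, with the lone library assumed to vary like the other group. The cause was not tested. Library size alone shifted the median of all genes to -0.27. Filtering on CPM left the gene set of 12783 as it was. The replicate block changed no call of a marker (Prox1 0.93, Pou4f1 -0.36, Calb2 -4.73). Depth limits the 6 undetected markers: a count of 0 over a group allows up to 0.153 CPM in proliferating cells and 0.138 CPM in the neurons.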

Other observations

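Some list genes whose counts are not given above were high in neuron replicate 2 alone. Sv2a, a synaptic vesicle glycoprotein, had 27 and 15 counts in proliferating cells and 21 and 115 in neurons. Atoh1, the factor that starts hair cell formation, had 17 and 18 counts in proliferating cells and 1 and 91 in neurons. Neither passed the edgeR test (adjusted p-value 0.9998 for each). Hes5, a Notch target, went the other way there, low in that library, with 79 and 181 counts in proliferating cells and 243 and 3 in neurons. These genes were picked from the lists after their values were seen.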
